A study of Arabidopsis thaliana with 87 samples.

Results

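The regions described here are stretches of Arabidopsis thaliana root chromatin that were called open in both hypoxic conditions of an ATAC-seq experiment and in neither of its control conditions. A region belongs to the set if its peak in the list of seedlings kept without oxygen for 2 h (2HS) shared at least 1 bp with a peak of the 9 h hypoxic list (9HS) and no base with a peak of the control lists of the same durations (2NS and 9NS). The regions were thus chosen by the presence and absence of ATAC peaks in these 4 lists. Of 27219 peaks in the 2HS list, 4477 overlapped no control peak, and 1185 of those overlapped a 9HS peak, which is 4.35% of the 2HS list. The authors' annotation assigned these 1185 hypoxia-only peaks to 1106 genes, of which 66 had at least 2 such peaks and 10 had at least 3. The same rule turned round, with peaks in both control lists and in neither hypoxic list, found 125 peaks of the 2NS list. That list is much shorter than the 2HS list, and library depth is not given. These counts therefore do not compare opening with closing.

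Seedlings were 7 days old, had been grown in long days on agar medium with sucrose, and were kept in the dark in a sealed chamber flushed with argon for 2 h (2HS) or 9 h (9HS). Reoxygenated groups were returned to air after the 2 h treatment, for 1 h (1R) or for 2 h (2R). The controls 2NS and 9NS were kept in the dark for 2 h and 9 h without argon. ATAC-seq, which marks open chromatin by transposase insertion, used root tissue of a line that tags nuclei (pUBQ10:NTF pACT2:BirA), with 2 samples in each of 5 conditions. RNA and immunoprecipitated chromatin came from whole seedlings and not from roots: nuclear and poly(A)+ RNA from the same tagging line, ribosome-bound (TRAP) RNA from p35S:RPL18-FLAG plants, the histone variant H2A.Z from a tagged HTA11 line, and the other marks from Col-0. There were 3 samples per group for RNA, RNA polymerase II phosphorylated at serine 2 (Ser2P) and H3K4me3, and 2 for H3K9ac, H3K14ac, H3K27me3 and H2A.Z. HRE2 binding was measured in 2HS seedlings that overexpress a stabilised, tagged HRE2 (p35S:C2A HRE2-HA), so those peaks may include regions that the plant's own HRE2 does not occupy, and no input or untagged control is named.

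Regulatory DNA that is bound by transcription factors is often depleted of nucleosomes and therefore accessible to the transposase. In Arabidopsis, low oxygen stabilises the group VII ERF transcription factors, which are degraded in air through an N-degron that plant cysteine oxidases (PCO) create, and these factors activate a core set of genes for fermentation, sugar use and oxygen signalling. HRE2 is one of them and is itself induced by hypoxia. Heat shock factors activate chaperone genes under heat and several other stresses.

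Each ATAC list was called on the combined files of a condition, so no peak has a replicate check, and the peak lists hold no library depth. The list lengths differed: 27219 peaks in 2HS, 14398 in 2NS, 21438 in 9HS, 27065 in 9NS and 38958 in 1R, and a region under the caller's threshold in a list counts here as absent from it. Among 18 root marker genes 11 had a 2HS peak, against 4 of 14 shoot marker genes and 13159 of 27444 protein-coding genes.

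The hypoxia-only peaks were weak and narrow. Their deposited score, the peak caller's own value, had a median of 27.4 in the 2HS list (range 20.2 to 163.7), against 64.5 for the 11608 2HS peaks present in all 4 lists and 36.3 for all 2HS peaks. In the 9HS list the peaks they overlapped had a median of 27.3, against 35.4 over that list. Of the 1185, 592 lay at or below the lower quartile of 2HS scores, 475 between it and the median, and 15 above the upper quartile. A width of 124 bp, the commonest in the list, was found for 97.9% of them and for 81.3% of all 2HS peaks. The 3292 2HS peaks found in no 9HS, 2NS or 9NS list were of similar strength, with a median score of 25.8. These scores come from the lists that define the set, so they describe it and test nothing.

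Many regions adjoined chromatin that was open without hypoxia. A 2NS or 9NS peak lay within 100 bp of 260 hypoxia-only peaks (21.9%) and within 500 bp of 501 (42.3%), while 684 (57.7%) had none within 500 bp. The median distance to the nearest control peak was 795 bp. At the border of the rule, 39 regions had a control peak starting 0 to 10 bases away, and 27 peaks shared by 2HS and 9HS were left out for an overlap of 1 to 10 bases with a control peak. Likewise 13 regions shared 1 to 10 bases with their 9HS peak, and 19 were left out that had a 9HS peak within 10 bases.

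**Figure D1:**
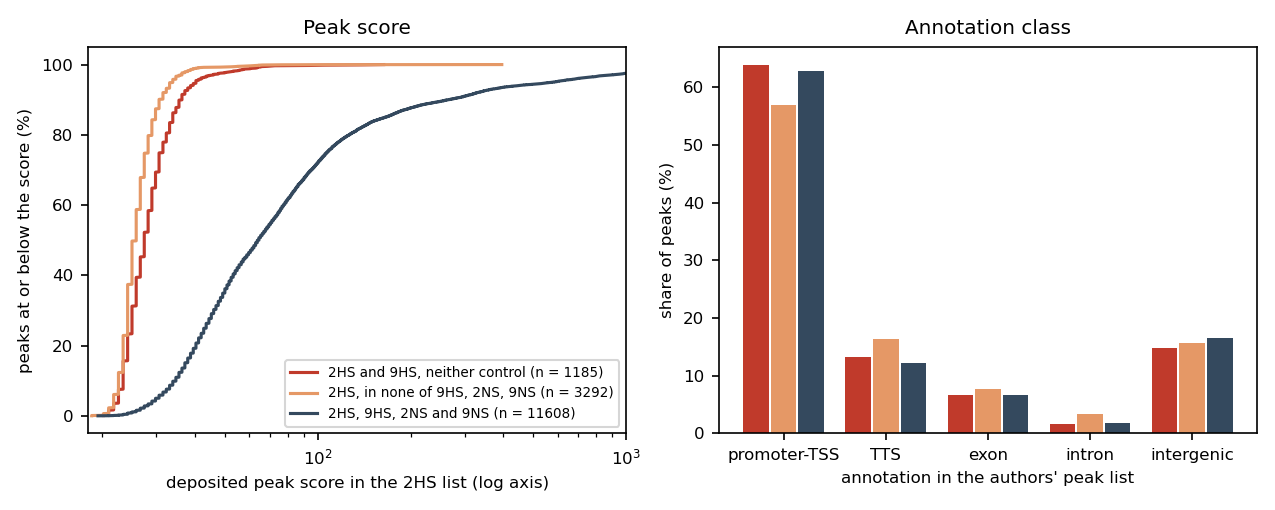
Deposited 2HS peak scores and annotation classes of the 1185 hypoxia-only peaks beside the other classes of 2HS peaks. The hypoxia-only peaks have a median score of 27.4, against 64.5 for peaks present in all 4 lists, while their promoter-TSS share is 63.8% against 62.8%.

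Their position relative to genes was close to that of the whole 2HS list. The promoter-TSS class held 756 hypoxia-only peaks (63.8%), against 62.0% of all 2HS peaks and 56.9% of peaks seen in the 2HS list alone. The regions around transcript ends held 13.2%, against 13.4% of all 2HS peaks, exons 6.58% against 6.65%, introns 1.69% against 2.21%, and intergenic sequence 14.8% against 15.7%. The stretch from 0 to 300 bp upstream of the annotated start held 376 of the hypoxia-only peaks (31.7%, 95% Wilson interval 29.1 to 34.4), 31.5% of all 2HS peaks and 24.5% of those in the 2HS list alone. Within 1000 bp of a start lay 71.4% of hypoxia-only peaks and 69.9% of all 2HS peaks. These intervals cover counting error over peaks only.

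The assigned genes were also of ordinary type: 958 of 1106 (86.6%) were protein-coding and 71 were long non-coding RNA genes, with 86.5% protein-coding among the genes of all 2HS peaks. Chromosome 5 held 26.2% of the hypoxia-only peaks and 22.1% of all 2HS peaks, chromosome 2 held 16.6% and 18.9%, and chromosome 1 held 25.7% and 25.4%. The gene with the most regions was AT3G33076 with 5, spread from 13725453 to 13769906 on chromosome 3, and 4 of these had no 1R peak. AT3G06433 had 4, and all others had 3 or fewer.

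Most regions were still listed as open after 1 h of reoxygenation. A 1R peak overlapped 1075 of the 1185 (90.7%, 95% Wilson interval 88.9 to 92.2), against 79.5% of the peaks in the 2HS list alone, 99.8% of those in all 4 lists and 96.2% of all 2HS peaks. The 1R list is the longest of the series, so this share is read beside those of the other classes only. The 1R peaks at hypoxia-only regions had a median score of 36, against 58 for the 1R peaks at all 2HS peaks. The 110 regions with no 1R peak belonged to 100 genes and had a median 2HS score of 25.8, against 27.4 for those with one. Of these 110, 36.4% were of the promoter-TSS class and 61 had another 1R peak within 500 bp.

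HRE2 peaks overlapped 62 of the hypoxia-only regions (5.23%, 95% Wilson interval 4.10 to 6.65), against 3.10% of peaks in the 2HS list alone, 11.1% of those in all 4 lists and 7.15% of all 2HS peaks. The share was thus lower than among the strong, always open peaks and higher than among the weak peaks of 2HS alone.

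Genes of the hypoxia response carried these regions in several cases. Of 43 core hypoxia genes 12 had a hypoxia-only peak (27.9%), as did 6 of 28 heat shock genes (21.4%), 5 of 31 rapid stress transcription genes (16.1%) and 4 of 28 genes of glycolysis and fermentation (14.3%). Among all 27444 protein-coding genes the share was 3.49%, but only 13159 of those had any 2HS peak. On the lists, 40 core hypoxia, 23 heat shock, 31 rapid stress and 21 glycolysis genes had one. The shares thus rest on unlike bases. The clock list had 2 of 21 genes (9.52%) and the list of dark and sugar starvation 0 of 14, while root markers had 2 of 18 (11.1%) and shoot markers 0 of 14. Most core hypoxia genes had 2HS peaks of another kind: 28 of the 43 had 2HS peaks but none of this class, and 3 had no 2HS peak. Of the 12 regions at core hypoxia genes 9 lay within 400 bp of the start and 6 overlapped an HRE2 peak. All 6 heat shock regions lay within 400 bp of the start, and none overlapped an HRE2 peak.

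The positions below are in TAIR10 as the peak lists give them, with distances to the annotated start. At PCO1, whose product is an oxygen-dependent cysteine oxidase, the region was chr5:4898489-4898613, centred 90 bp upstream and 4588 bases from any control peak. At PCO2, a second such oxidase, it was chr5:15974104-15974228, 104 bp upstream. HRA1, a trihelix factor that restrains the group VII factor RAP2.12, had chr3:3098749-3098873, 394 bp upstream. LBD41, a LOB-domain factor induced by hypoxia, had chr3:538434-538558, 370 bp upstream and 79 bases from a control peak. All 4 lie in the promoter-TSS class, and those at PCO1, PCO2 and LBD41 overlapped an HRE2 peak.

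The heat shock regions sat close to the start. HSP101, the disaggregase of acquired thermotolerance, had chr1:27940235-27940359, 12 bp downstream of its start, and HSP70 (AT3G12580) had chr3:3993816-3993940, 8 bp downstream. The cytosolic small heat shock proteins HSP17.6II and AT1G07400 had chr5:3883074-3883198 and chr1:2274790-2274914, 25 and 74 bp upstream. HSP90.1, a chaperone, had chr5:21352252-21352376, 243 bp upstream, and ROF2, an FK506-binding co-chaperone, had chr5:19693714-19693838, 69 bp downstream. The nearest control peaks were between 1791 and 6577 bases away. Only the regions of HSP101 and AT1G07400 had a 1R peak, and the 1R list held no peak at all for HSP70, HSP90.1 and HSP17.6II. Of the 12 core hypoxia regions 9 had a 1R peak, and the other 3, at SUS1, PCO2 and AT3G27220, lay 18 to 90 bases from another one.

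**Figure D2:**
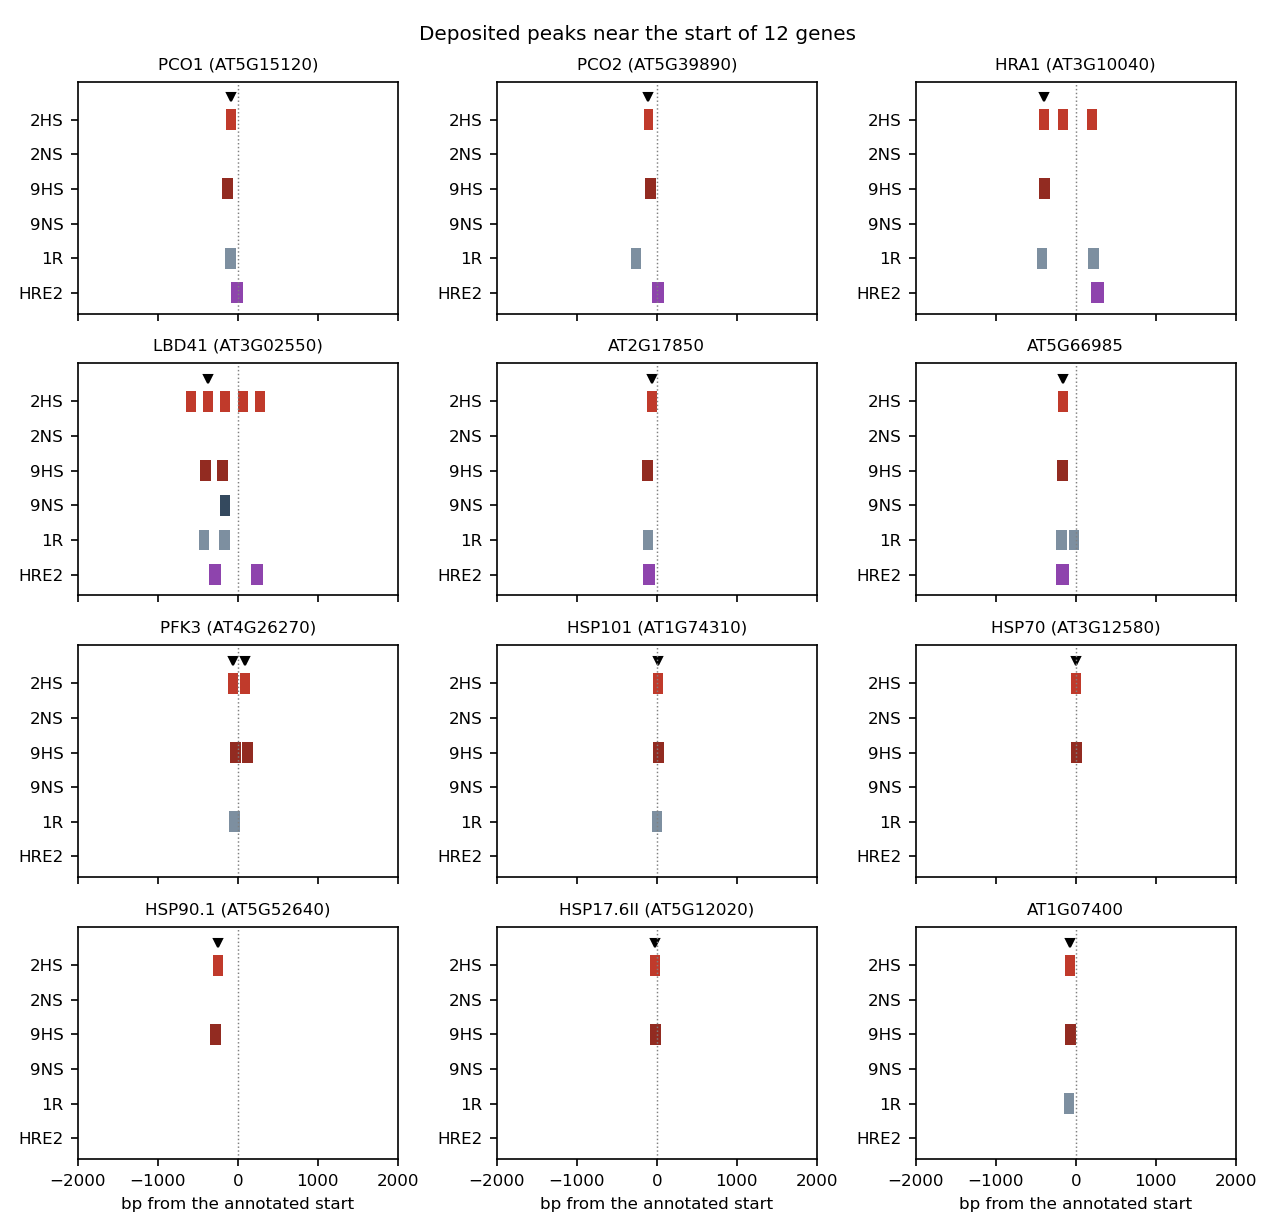
Deposited peaks within 2000 bp of the annotated start of 12 genes, by list, with hypoxia-only peaks marked by triangles. Regions at PCO1, HSP101 and AT1G07400 stand at least 2703 bases from any control peak, while that of LBD41 stands 79 bases from one.

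Values of RNA and chromatin per gene are RPKM, reads scaled to gene length and library size, and the deposited columns are means over the samples of a group. The digits of those means fixed the whole reads of each library for most genes, and limma was run on these libraries (log2 of RPKM + 1, each library centred on its median gene, all groups of an assay in 1 fit). A gene is said to rise or fall only where the Benjamini-Hochberg adjusted p over all genes tested was under 0.05, and changes are log2 with their standard error. Genes whose reads could not be resolved, mostly abundant ones, are given as untested differences between the authors' means, on the same log2 scale and relative to the median gene of the comparison. Counts of genes at least 2-fold apart in the means use that scale too, so they can differ from ratios of the deposited RPKM. Library totals ran from 1050846 to 16609010 reads in nuclear RNA, from 2530002 to 12425850 in TRAP, from 8658720 to 20957002 in poly(A)+ RNA, and from 3548473 to 20193000 in the chromatin assays other than HRE2. Nothing in the labels says that samples came from separate cultures, so p-values measure spread that may be technical. In bulk samples fewer cells of a type and less RNA per cell cannot be told apart. Before centring, the median gene itself stood 0.42 lower in 2HS than in 2NS in nuclear RNA and 0.26 higher in poly(A)+ RNA, and in 1R it stood 0.46 and 0.61 higher than in 2HS. The deepest nuclear library stood 1.21 (2HS) and 1.20 (2NS) below the mean of its assay before centring, and poly(A)+ RNA of the median gene was 1.75 lower in 9HS than in 9NS. Leaving out single nuclear libraries moved the count of called genes of hypoxia-only peaks from 28 to between 11 and 43.

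Without hypoxia the genes of these regions were already expressed above the typical gene. Their median level in 2NS was 2.94 RPKM in nuclear RNA, against 1.44 RPKM for all protein-coding genes, 1.24 against 0.531 RPKM in poly(A)+ RNA and 4.56 against 1.82 RPKM in TRAP RNA. H3K9ac, an acetylation of active promoters, had a median of 16.1 RPKM at them and 11 RPKM at all genes, while H2A.Z differed little (14.5 and 14.4 RPKM). Genes with other 2HS peaks and none of this class had a median of 2.93 RPKM in nuclear RNA. Of the 1106 genes 20 were listed at 0 in every column, among them the core hypoxia gene AT5G10040 and ERF105, a stress-responsive ERF gene. As this holds for the chromatin columns too, the 0 is not read here as absence of expression.

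After 2 h of hypoxia rises were commoner among genes of hypoxia-only peaks than over all genes in the RNA assays and in H3K9ac. In nuclear RNA 747 of the 958 protein-coding genes passed the filter of 1 RPKM, 699 were tested, 27 rose (3.86%) and 1 fell (0.143%), beside 1.16% and 0.111% of all genes tested. In poly(A)+ RNA 634 passed, 530 were tested, 62 rose (11.7%) and 35 fell (6.6%), beside 5.04% and 5.69%. In TRAP RNA 755 passed, 567 were tested, 121 rose (21.3%) and 90 fell (15.9%), beside 13.5% and 12.8%. In H3K9ac all 949 that passed were tested, 106 rose (11.2%) and 48 fell (5.06%), beside 6.36% and 4.63%. Without centring the 97 poly(A)+ calls came to 13, and without either 2NS library the 154 H3K9ac calls came to 76 (81 without the shallower 2HS library).

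The typical gene of a hypoxia-only region hardly moved. The median change of the tested genes was 0.11 in nuclear RNA, 0.06 in poly(A)+ RNA, 0.02 in TRAP RNA and 0.02 in H3K9ac, beside 0.02, 0.01, 0.00 and -0.01 over all genes. Among genes with other 2HS peaks only, 1.37% rose in nuclear RNA, 5.71% in poly(A)+ RNA, 14.6% in TRAP RNA and 8.00% in H3K9ac. Genes with a peak of the 2HS list alone had shares of 3.07%, 8.42%, 18.1% and 11.7% in the same order. Where every 2HS peak of a gene was hypoxia-only, 7 of 321 rose in nuclear RNA (2.18%), 18 of 247 in poly(A)+ RNA (7.29%) and 39 of 438 in H3K9ac (8.90%).

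Of the 27 rises in nuclear RNA, 25 were among the 545 tested genes with a region within 1000 bp of the start, which were most of the 699 tested. In poly(A)+ RNA 45 of 412 genes rose and 18 fell with a near region, against 17 rises and 17 falls among 118 genes with distant ones only. The share that rose was thus lower with a near region in this RNA. Genes whose region lacked a 1R peak had 5 rises among 33 tested in nuclear RNA and 13 rises among 61 in H3K9ac (21.3%), and genes with an HRE2 peak on the region had 7 among 48 and 13 among 58 (22.4%). Over all genes tested 1.16% rose in nuclear RNA and 6.36% in H3K9ac, while 5.04% rose and 5.69% fell in poly(A)+ RNA. These groups were not tested against each other.

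Core hypoxia genes with these regions were several fold higher in RNA after 2 h. Of the 12, 11 passed the filters (AT5G10040 is the one listed at 0), and all 11 were at least 2-fold higher in the means of 2HS in nuclear RNA (beside 10% of all genes), in poly(A)+ RNA (2.78%) and in TRAP RNA (5.95%). Of those resolved in both groups, 6 of 7 rose in nuclear RNA, 2 of 2 in poly(A)+ RNA, 2 of 2 in TRAP RNA and 10 of 11 in H3K9ac. Over all genes tested the shares that rose were 1.16%, 5.04%, 13.5% and 6.36% in the same order. Their median difference in means was 3.87 in nuclear RNA, beside 3.15 for the 31 core hypoxia genes without such a region, and 1.38 beside 0.82 in H3K9ac. The list is made of known hypoxia-induced genes, so its direction is no independent evidence. The filter averages over all groups of an assay, and AT2G17850 passed it in nuclear and TRAP RNA only through hypoxic groups.

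PCO2 had 75.3, 36.0 and 12.4 RPKM of nuclear RNA in the 2HS libraries, in order of rising depth, against 2.03, 5.13 and 0.904 RPKM in the 2NS libraries. The groups do not overlap, and the deepest library is the lowest in each. The rise was 3.79 ± 0.47 (limma, adjusted p = 7.00e-05). HRA1 had 61.5, 84.2 and 12.2 RPKM in 2HS against 6.75, 1.12 and 0.779 RPKM in 2NS, again without overlap, and rose by 4.17 ± 0.56 (limma, adjusted p = 0.000159). For PCO1 the libraries had 35.6, 25.1 and 7.56 RPKM in 2HS against 7.76, 4.11 and 0.617 RPKM in 2NS. Its lowest 2HS library lay just under the highest 2NS library before centring, and its rise was 2.70 ± 0.55 (limma, adjusted p = 0.0127; 0.0602 with a pseudocount of 0.25 RPKM).

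AT2G17850, a rhodanese-family gene whose region lay 65 bp upstream at chr2:7760842-7760966 and overlapped an HRE2 peak, was close to absent in the controls. Its nuclear RNA was 26.0, 1.97 and 3.46 RPKM in 2HS and 0, 0 and 0.155 RPKM in 2NS. Its TRAP RNA was 18.2, 27.5 and 25.1 RPKM in 2HS against 2.37, 0.407 and 0.134 RPKM in 2NS. The groups were apart in both assays, and the gene rose by 3.19 ± 0.65 in nuclear RNA (limma, adjusted p = 0.0112), 2.52 ± 0.25 in poly(A)+ RNA (adjusted p = 8.76e-10) and 3.86 ± 0.32 in TRAP RNA (adjusted p = 6.67e-06). It passed the filter of 1 RPKM only through 2HS in TRAP RNA, with means of 0.969 RPKM in 2NS and 0.736 RPKM in 2R. In nuclear RNA it passed only through 2HS and 9HS, with 0.0516 (2NS), 0.374 (9NS) and 0.271 RPKM (1R). In these 2 assays the filter itself favoured a rise.

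AT5G66985, a core hypoxia gene with a region 155 bp upstream at chr5:26743062-26743186, had 29.2, 134 and 99.4 RPKM of poly(A)+ RNA in 2HS against 0.990, 6.07 and 2.53 RPKM in 2NS. Every 2HS library was above every 2NS library, and the rise was 4.17 ± 0.31 (limma, adjusted p = 7.69e-13). LBD41 was the most abundant: its authors' mean was 349 RPKM in 2HS and 12.7 RPKM in 2NS in nuclear RNA, 401 and 5.67 RPKM in poly(A)+ RNA, and its 2HS reads could not be resolved. SUS1, a sucrose synthase, RBOHD, an NADPH oxidase, and AT1G26270 were 4.25, 3.81 and 2.66 higher in the nuclear means, also untested. AT3G27220 (4.18 ± 0.38) and SAD6, an acyl carrier protein desaturase (2.36 ± 0.54), rose in nuclear RNA (limma, adjusted p = 1.36e-05 and 0.0275).

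Among genes of hypoxia-only peaks the largest tested rise in nuclear RNA was at AT3G23170, a gene of no fixed list that the deposited table describes as a hypothetical protein. Its region lay in an exon, chr3:8268754-8268878, 145 bp downstream of the start and 454 bases from a control peak. Its libraries had 150.5, 64.7 and 22.1 RPKM in 2HS against 0.866, 0.954 and 1.49 RPKM in 2NS, without overlap, and rose by 5.31 ± 0.62 (limma, adjusted p = 7.00e-05). Its authors' mean in TRAP RNA was 369 RPKM in 2HS and 8.75 RPKM in 2NS, untested, while its H3K9ac changed by 0.04, which did not pass (limma, adjusted p = 0.902). AT4G32480, of the DUF506 family, had a region 328 bp upstream, chr4:15675850-15675974, 77 bases from a control peak. Its nuclear mean was 216 RPKM in 2HS and 13.4 RPKM in 2NS, untested, and its H3K9ac rose by 0.83 ± 0.16 (limma, adjusted p = 0.00685).

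**Figure D3:**
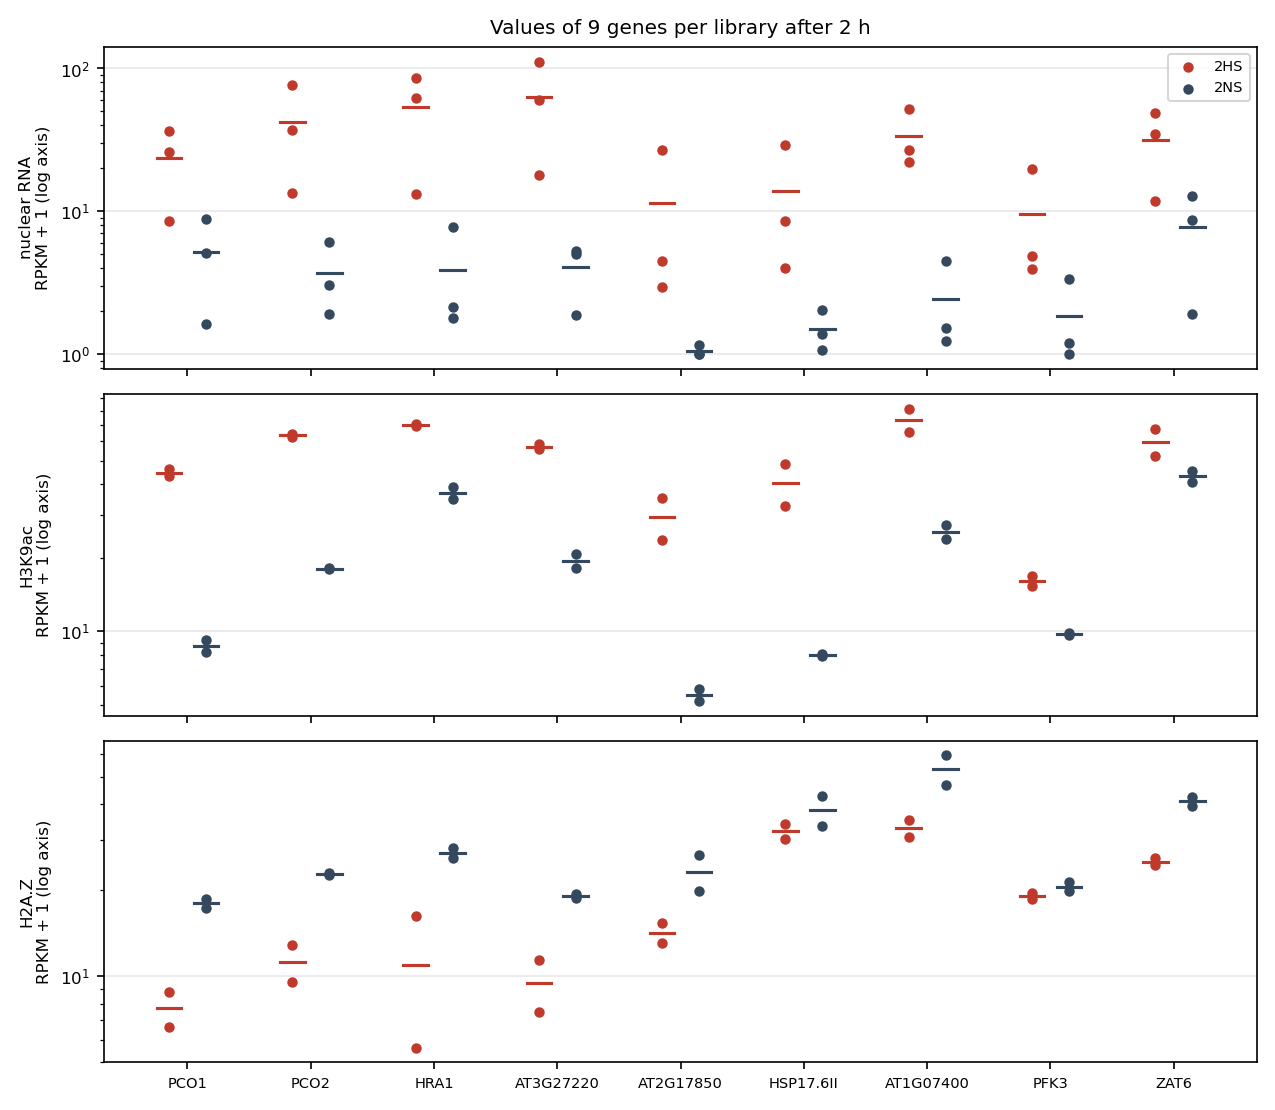
RPKM + 1 per library (dots) and of authors' means (lines) for 9 genes with hypoxia-only peaks in nuclear RNA, H3K9ac and H2A.Z, on a log axis. Before 1 is added, PCO2 stands at 12.4 to 75.3 RPKM of nuclear RNA in 2HS and 0.904 to 5.13 RPKM in 2NS, while its H2A.Z stands at 8.52 to 11.8 RPKM in 2HS and 21.7 to 22.1 RPKM in 2NS.

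Heat shock genes with these regions differed more in nuclear RNA than in poly(A)+ RNA after 2 h. Relative to the median gene and with 1 RPKM added, all 6 were at least 2-fold higher in the nuclear means of 2HS. In the poly(A)+ means 1 of the 6 was, and the median differences were 3.76 and 0.72. The added 1 RPKM shrinks the differences of low genes. As deposited, the poly(A)+ means in 2HS and 2NS were 3.32 and 1.01 RPKM at HSP101 and 3.65 and 1.48 RPKM at HSP90.1. They were 1.64 and 0.269 RPKM at HSP17.6II, and 7.72 and 1.81 RPKM at AT1G07400. At HSP70 they were 14.4 and 7.70 RPKM, and at ROF2 0.492 and 0.275 RPKM. Of those resolved, 3 of 3 rose in nuclear RNA, 4 of 5 in poly(A)+ RNA, 2 of 3 in TRAP RNA and 6 of 6 in H3K9ac. The shares of all genes tested that rose were 1.16%, 5.04%, 13.5% and 6.36% in that order. TRAP means in 2HS and 2NS were 63.3 and 7.46 RPKM at HSP101, 214 and 38.9 RPKM at HSP70, and 57.9 and 11.0 RPKM at HSP90.1, untested. They were 16.2 and 2.51 RPKM at HSP17.6II, 79.5 and 8.98 RPKM at AT1G07400, and 2.90 and 2.62 RPKM at ROF2. The 22 heat shock genes without such a region had medians of 2.22 in nuclear RNA, 0.49 in poly(A)+ RNA and 1.12 in H3K9ac, where those with one had 0.99.

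ROF2 showed the contrast most plainly. Its nuclear RNA was 18.8, 11.4 and 15.0 RPKM in 2HS against 0.133, 1.66 and 0.382 RPKM in 2NS, a rise of 3.72 ± 0.49 (limma, adjusted p = 0.000143) with the groups far apart. Its poly(A)+ RNA was 0.387, 0.509 and 0.579 RPKM in 2HS against 0.217, 0.332 and 0.276 RPKM in 2NS, also without overlap before centring. All these values lie under the 1 RPKM added before the log, which shrinks their difference. On that scale the change was 0.06 and did not pass (limma, adjusted p = 0.939).

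AT1G07400 had 50.6, 21.1 and 26.0 RPKM of nuclear RNA in 2HS against 0.526, 3.47 and 0.226 RPKM in 2NS, and 9.84, 5.94 and 7.39 RPKM of poly(A)+ RNA in 2HS against 1.99, 2.25 and 1.18 RPKM in 2NS. No library of one group reached the other in either assay, and the rises were 4.38 ± 0.78 and 1.47 ± 0.30 (limma, adjusted p = 0.00289 and 0.000536). HSP17.6II rose by 3.22 ± 0.73 in nuclear RNA, 0.90 ± 0.25 in poly(A)+ RNA and 2.22 ± 0.37 in TRAP RNA (limma, adjusted p = 0.0269, 0.0132 and 0.00102). HSP101, HSP90.1 and HSP70 were 4.02, 3.88 and 3.63 higher in the nuclear means, untested, with HSP101 at 64.5 RPKM in 2HS and 4.42 RPKM in 2NS. Their Ser2P means were also higher in 2HS: 178 RPKM against 17.6 RPKM in 2NS at HSP70, and 92.3 against 11.8 RPKM at HSP101, again untested.

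The rapid stress genes with regions are transcription factors of defence and abiotic stress. Of the 5, ERF105 was listed at 0, and 3 of the 4 that passed rose in both nuclear and poly(A)+ RNA. Over all genes tested 1.16% rose in nuclear RNA and 5.04% in poly(A)+ RNA. ZAT6, a C2H2 zinc-finger factor, had 47.4, 34.0 and 10.7 RPKM of nuclear RNA in 2HS against 11.8, 7.61 and 0.891 RPKM in 2NS, so that the groups overlapped slightly before centring, and rose by 2.62 ± 0.42 (limma, adjusted p = 0.00101). WRKY22 had 40.5, 38.8 and 32.7 RPKM of TRAP RNA in 2HS against 2.07, 1.19 and 3.12 RPKM in 2NS, far apart, and rose by 3.73 ± 0.25 (limma, adjusted p = 1.5e-06). WRKY33 rose by 2.24 ± 0.46 in nuclear RNA (limma, adjusted p = 0.0117) and ERF1A by 1.19 ± 0.22 in TRAP RNA (limma, adjusted p = 0.00184). A control peak lay close to some of these regions, 9 bases from that of ZAT6, 32 bases from that of WRKY33 and 54 bases from that of ERF105.

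Of the glycolysis list, PFK3, a phosphofructokinase, had a pair of regions at its start, chr4:13304442-13304566 at 64 bp upstream and chr4:13304291-13304415 at 87 bp downstream, 8308 and 8459 bases from the nearest control peak. Its TRAP RNA was 13.9, 17.5 and 13.9 RPKM in 2HS against 1.19, 1.44 and 0.945 RPKM in 2NS. The groups were far apart, and PFK3 rose by 2.95 ± 0.18 in TRAP RNA, 1.46 ± 0.21 in poly(A)+ RNA and 2.62 ± 0.53 in nuclear RNA (limma, adjusted p = 5.15e-07, 3.41e-06 and 0.0112). SUS3, another sucrose synthase, rose by 0.77 ± 0.21 in TRAP RNA (limma, adjusted p = 0.0168), and ENO2, an enolase, had 244 RPKM of TRAP RNA in 2HS and 224 RPKM in 2NS. The clock genes ELF3 and RVE1 had changes of 0.11 and 0.07 in poly(A)+ RNA that did not pass (limma, adjusted p = 0.752 and 0.876).

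Some genes with these regions fell. NAC083, a NAC factor of xylem and senescence, had a region 71 bp downstream of its start and another 1044 bp upstream, and its poly(A)+ RNA was 1.07, 5.62 and 2.91 RPKM in 2HS against 4.16, 11.6 and 9.67 RPKM in 2NS. The groups overlapped before centring and the fall was -1.40 ± 0.21 (limma, adjusted p = 5.32e-06). H3K9ac at NAC083 was 17.6 and 16.5 RPKM in 2HS against 39.0 and 41.7 RPKM in 2NS, without overlap, and fell by 1.18 ± 0.13 (limma, adjusted p = 0.000307).

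GLK2, a factor of chloroplast development, gave the only fall in nuclear RNA among these genes, -1.71 ± 0.41 (limma, adjusted p = 0.0361). Its libraries had 9.04, 2.71 and 1.13 RPKM in 2HS against 36.1, 32.8 and 4.44 RPKM in 2NS, so that only the deepest 2NS library reached the range of 2HS. The region assigned to it lay 5167 bp upstream, 2 bases from a control peak. PYL6, an abscisic acid receptor, and DEAR2, an AP2 factor, fell by 1.29 ± 0.19 and 1.15 ± 0.19 in poly(A)+ RNA and by 1.12 ± 0.20 and 1.36 ± 0.15 in H3K9ac. These 4 falls passed limma's test with adjusted p between 1.90e-05 at DEAR2 and 2.45e-06 at PYL6 in RNA, and 0.00432 at PYL6 and 0.000242 at DEAR2 in H3K9ac.

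Rises in RNA and in acetylation met at some of the same genes. Of 27 genes of hypoxia-only peaks that rose in nuclear RNA, 20 also rose in H3K9ac (74.1%), which is 26.3% of the 76 H3K9ac rises among genes tested in both, beside 65.2% and 11.3% over all genes. For poly(A)+ RNA and H3K9ac, 24 genes rose in both, 38.7% of the RNA rises and 44.4% of the H3K9ac rises, beside 39.7% and 27.1% over all genes. Of 420 genes tested in poly(A)+ RNA, TRAP RNA and H3K9ac, 17 rose in all of these (4.05%), beside 134 of 8749 (1.53%). They include AT2G17850, AT5G66985, PFK3, AT1G07400 and HSP17.6II.

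H3K9ac rose most at BBX29, a B-box protein, AT2G17850, PCO1, HSP17.6II and AT1G71000, a DnaJ-domain gene. BBX29 had 58.8 and 57.7 RPKM in 2HS against 8.65 and 9.49 RPKM in 2NS, and PCO1 had 42.2 and 45.2 RPKM against 7.23 and 8.19 RPKM. The groups were several fold apart at both, with rises of 2.57 ± 0.16 and 2.37 ± 0.16 (limma, adjusted p = 2.51e-05 and 3.31e-05). AT1G71000 had 39.5 and 21.8 RPKM of H3K9ac in 2HS against 5.26 and 6.67 RPKM in 2NS and rose by 2.15 ± 0.26 (limma, adjusted p = 0.000485), while its nuclear RNA stayed under 1 RPKM in every 2HS and 2NS library. BBX29 also rose in H3K14ac, by 1.31 ± 0.18 (limma, adjusted p = 0.0261), where 4 of 948 genes of hypoxia-only peaks rose and 1 fell, beside 0.354% and 0.2% of all genes, and these 5 calls came to 0 without either 2NS library or the shallower 2HS library.

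H2A.Z fell at 2 of 950 tested genes (0.211%) and rose at 0, beside 0.068% and 0.0151% of all genes. At an unadjusted p under 0.05, 83 of the 950 were lower and 74 higher, beside 1400 (5.29%) and 1675 (6.33%) of all 26470 genes. LBD41 had 11.4 and 4.16 RPKM in 2HS against 34.2 and 34.9 RPKM in 2NS, and PCO1 had 7.84 and 5.62 RPKM against 17.6 and 16.4 RPKM. Both groups of each gene were apart, with falls of 2.14 ± 0.30 and 1.23 ± 0.20 (limma, adjusted p = 0.0219 and 0.0492). PCO2 (-1.04), AT3G27220 (-1.04) and HRA1 (-1.50) had lower H2A.Z in each 2HS library than in any 2NS library without passing (limma, adjusted p = 0.0595, 0.0948 and 0.160). The count of falls rests on single libraries: without the deeper 2HS library (10034895 reads), 222 genes of hypoxia-only peaks were called, and the PCO1 call ended under 3 other settings. With no filter on low values no H2A.Z call was left, so the LBD41 call ended there too.

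Ser2P, H3K4me3 and H3K27me3 gave 0 calls by limma among 470, 563 and 934 tested genes of hypoxia-only peaks, beside 0% of all genes in each direction. At an unadjusted p under 0.05 Ser2P was higher at 25 and lower at 6 of the 470, beside 417 (2.49%) and 230 (1.37%) of all 16752 genes. H3K4me3 was higher at 9 and lower at 40 of the 563, beside 632 (3.31%) and 842 (4.41%) of 19090. H3K27me3 was higher at 11 and lower at 12 of the 934, beside 471 (1.8%) and 587 (2.25%) of 26127. Without the shallower 2HS library H3K27me3 gave 48 adjusted calls. Many abundant genes were unresolved in Ser2P, and between the authors' means 85 of 946 genes were at least 2-fold higher in 2HS (8.99%), beside 4.04% of all genes, and 10 lower (1.06%), beside 0.813%.

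Regions shared with HRE2 peaks belonged to 59 protein-coding genes. Besides PCO1, PCO2, LBD41 and AT2G17850, AT1G07135 had a region in its exon, chr1:2190118-2190242, 604 bp downstream of the start. It rose by 2.99 ± 0.57 in nuclear RNA and 2.84 ± 0.32 in poly(A)+ RNA (limma, adjusted p = 0.00612 and 1.43e-08), with 27.7, 105 and 72.4 RPKM of poly(A)+ RNA in 2HS against 4.13, 9.64 and 6.87 RPKM in 2NS. AT1G10140 and OPR1, an oxophytodienoate reductase, rose by 2.47 ± 0.60 and 2.10 ± 0.39 in nuclear RNA (limma, adjusted p = 0.0441 and 0.00435). HRE2 sequencing carries no control column, so no change is given for it.

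The strongest hypoxia-only peaks by score were at other genes. The highest, 163.7, was a peak of 529 bp 237 bp upstream of the long non-coding RNA gene AT4G08725, and the next, 138.7, lay 402 bp upstream of the long non-coding AT2G04915. AT2G15880, a leucine-rich repeat gene, had 3 regions in its exon with scores of 40.3, 57.3 and 104.8, of which 2 had no 1R peak. Its TRAP mean was 91.0 RPKM in 2HS and 7.96 RPKM in 2NS, untested, and its poly(A)+ change of 0.59 did not pass (limma, adjusted p = 0.0616). GTL1, a trihelix factor, had a peak of score 94.4, 2649 bp downstream of its start, and a nuclear change of -0.12 that did not pass (limma, adjusted p = 0.979).

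After 9 h the calls were more numerous in genes of hypoxia-only peaks and in all genes alike. In nuclear RNA 27 of 649 rose (4.16%) and 13 fell (2.00%), beside 2.49% and 1.82% of all genes. In H3K9ac 220 of 949 rose (23.2%) and 172 fell (18.1%), beside 14.7% and 16.3%. In H3K14ac 223 of 948 rose (23.5%) and 81 fell (8.54%), beside 15.5% and 7.1%. Leaving out single libraries moved the 40 nuclear calls to between 20 and 77, and the 304 H3K14ac calls to 126 without the shallower 9HS library and to 129 without the shallower 9NS library. In poly(A)+ RNA 128 of 512 rose (25.0%) and 110 fell (21.5%), beside 19.9% and 22.2%, all relative to a median gene that was 1.75 lower in 9HS. Without the centring 425 genes of hypoxia-only peaks were called in this last comparison, and WRKY33, WRKY22, ZAT6, ELF3, ROF2 and HSP70 turned from rises to changes between -0.75 and -0.080.

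Of 648 genes of hypoxia-only peaks tested in nuclear RNA at both times, 13 rose at both (2.01%) and 10 rose at 2 h only (1.54%), beside 0.627% and 0.372% of all 14506 genes. In H3K9ac 87 of 949 rose at both times (9.17%), beside 4.98% of all genes. The 36 that fell at both times (3.79%) and the 1 that rose at 2 h and fell at 9 h (0.105%) were close to the shares of all genes, 3.69% and 0.0981%. The gene that rose and then fell was LBD41, with 19.4 and 25.7 RPKM in 9HS against 47.4 and 42.9 RPKM in 9NS, a fall of 1.00 ± 0.22 (limma, adjusted p = 0.00503), while at 2 h it had 65 and 57.2 RPKM in 2HS against 24.1 and 39.5 RPKM in 2NS, a rise of 0.97 ± 0.22 (adjusted p = 0.0156). The groups were apart at each time, in opposite directions. LBD41 nuclear RNA stayed high, at an authors' mean of 609 RPKM in 9HS and 14.9 RPKM in 9NS.

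Heat shock genes had their highest acetylation at 9 h. HSP17.6II had 97.1 and 112 RPKM of H3K9ac in 9HS against 8.06 and 6.59 RPKM in 9NS, and AT1G07400 had 160 and 194 RPKM against 24.5 and 16.7 RPKM. The groups were far apart at both, and the rises of 3.65 ± 0.17 and 3.04 ± 0.21 (limma, adjusted p = 1.46e-06 and 4.38e-06) stand beside 2.33 ± 0.17 and 1.53 ± 0.21 at 2 h. All 6 heat shock genes rose in H3K9ac at 9 h, with a median of 2.23, beside 1.87 for the 22 without a hypoxia-only region, all of which rose too. Of the 11 core hypoxia genes measured 9 rose and LBD41 fell, with a median of 0.74, beside 1.07 for those without. Over all genes tested 14.7% rose and 16.3% fell in H3K9ac at 9 h.

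The comparison of reoxygenated with hypoxic seedlings shares its 2HS libraries with the comparisons of 2HS and 2NS, so values are set side by side and no relation between them is drawn. In nuclear RNA of 1R against 2HS, 5 of 714 genes of hypoxia-only peaks rose (0.700%) and 13 fell (1.82%), beside 0.642% and 0.95% of all genes, and these 18 calls came to 35 without the deepest 1R library and to 9 without the shallowest 2HS library. In poly(A)+ RNA 54 of 491 rose (11%) and 57 fell (11.6%), beside 9.17% and 7.59%. In TRAP RNA of 2R against 2HS 131 of 590 rose (22.2%) and 118 fell (20.0%), beside 18.7% and 17.7%.

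Core hypoxia genes with these regions were all lower after reoxygenation in nuclear RNA. Relative to the median gene, all 11 were at least 2-fold lower in the means of 1R than of 2HS, beside 13.4% of all genes. Of the 7 resolved, 5 fell, beside 0.95% of all genes tested. PCO2 had 8.56, 0.664 and 2.88 RPKM in 1R against 75.3, 36.0 and 12.4 RPKM in 2HS, without overlap, and fell by 3.61 ± 0.47 (limma, adjusted p = 0.000455). HRA1 had 11.9, 4.33 and 1.80 RPKM in 1R against 61.5, 84.2 and 12.2 RPKM in 2HS, also apart, and fell by 3.36 ± 0.56 (limma, adjusted p = 0.00269). Of these 2 genes, the region of HRA1 was still listed as open in 1R and that of PCO2 was not, though another 1R peak stood 26 bases away.

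In poly(A)+ RNA the core hypoxia genes measured were also lower in 1R than in 2HS relative to the median gene. Their differences ran from -0.565 at SUS1 to -4.93 at LBD41, most of them untested. Heat shock genes with these regions went the other way in this RNA. All 6 were at least 2-fold higher in the means of 1R than of 2HS, beside 2.6% of all genes, with a median of 2.99, and none could be tested, as their 1R reads were unresolved. ROF2 passed the filter of 1 RPKM in this RNA only through 1R, so the filter fixed its direction in this count. Its other means were 0.275 (2NS), 0.492 (2HS), 0.817 (9NS) and 0.573 RPKM (9HS). HSP17.6II stood at 80.7 RPKM in 1R and 1.64 RPKM in 2HS, HSP90.1 at 56.1 and 3.65 RPKM, and ROF2 at 16.9 and 0.492 RPKM. In TRAP RNA ROF2 had 27.6, 25.5 and 33.7 RPKM in 2R against 2.39, 3.71 and 2.59 RPKM in 2HS, far apart, and rose by 2.75 ± 0.19 (limma, adjusted p = 1.02e-06). HSP17.6II rose by 2.60 ± 0.37 there (limma, adjusted p = 0.00023). In nuclear RNA of 1R against 2HS 0 of the 3 resolved rose or fell by limma's adjusted p, beside 0.642% and 0.95% of all genes. In the means, 3 of the 6 were at least 2-fold lower relative to the median gene. HSP101 (-0.92) and HSP90.1 (-0.74) were lower by less, and ROF2 was higher (0.17).

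PYL6 and DEAR2 had more poly(A)+ RNA in 1R than in 2HS. Both genes were named because their falls in this RNA after 2 h were among the largest. The comparison with 1R uses those low 2HS libraries again, so the choice of genes favours a rise. Recovery from hypoxia was therefore not tested by the p-values given here. PYL6 had 11.5, 23.8 and 21.3 RPKM of poly(A)+ RNA in 1R against 0.408, 1.07 and 0.732 RPKM in 2HS, with no overlap, and rose by 2.82 ± 0.19 (limma, adjusted p = 5.12e-14). DEAR2 had 11.3, 17.7 and 10.8 RPKM in 1R against 0.726, 3.99 and 1.95 RPKM in 2HS, also apart, and rose by 1.60 ± 0.19 (limma, adjusted p = 2.97e-08). Both had 1R peaks on every hypoxia-only region assigned to them.

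**Figure D4:**
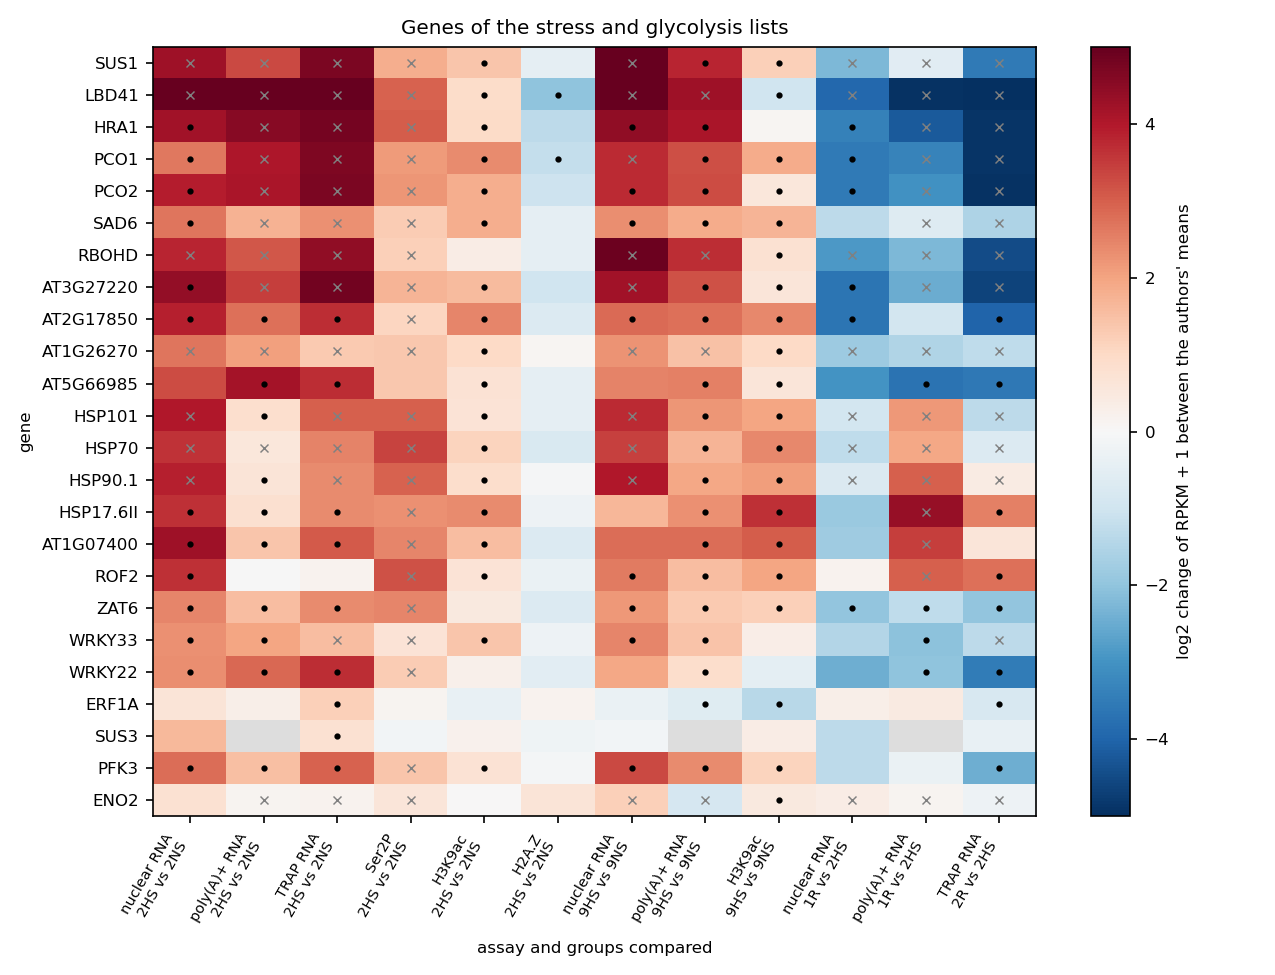
Log2 changes between the authors' means (RPKM + 1, relative to the median gene) for genes of the stress and glycolysis lists with hypoxia-only peaks, with dots where limma's adjusted p was under 0.05, crosses where reads were unresolved and grey where the gene was below the filter. PCO2 changes by 3.94 in nuclear RNA of 2HS against 2NS and by -3.53 in 1R against 2HS. In poly(A)+ RNA of 1R against 2HS PCO2 changes by -3.03, while the 6 heat shock genes are all higher in 1R.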

How the data were processed

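The authors deposited 1 table of RPKM per gene, whose columns are means over the samples of a group per the file headers, and peak lists for 5 ATAC conditions and HRE2, called on combined files and annotated with HOMER against TAIR10 and Araport11 per the file headers. ATAC peaks carry a deposited score; the HRE2 scores were all 0 and were not used. The submitters' processing notes name Bowtie2, TopHat2 and HOMER; versions, strand setting, read counter and score unit: not given in the sources used here. Hence overlapping or antisense genes and near-identical copies are uncertain. Strength of a peak was read within its own list only.

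Peaks shared at least 1 bp to count as overlapping. Genes, types and lengths came from RefSeq (TAIR10.1), which matched 37746 of 37899 identifiers. As RPKM is not a count, whole reads per library were solved from the digits of the means and gene length, tested on simulated data, and libraries numbered by depth. limma 3.58.1 (R 4.3.3) was fitted to log2(RPKM + 1) of genes that code for protein and averaged 1 RPKM or more over the assay, with a variance trend, over 16 comparisons. As this average takes in all groups of the assay, a gene could pass through 1 group where it was high. Fold changes on this scale understate those of low genes. Named genes were those of hypoxia-only peaks on the gene lists, the largest changes in nuclear RNA, poly(A)+ RNA, H3K9ac and H2A.Z, the 5 highest scores, and HRE2-overlapping genes that were highest in poly(A)+ RNA. Regions, lists and genes were chosen with earlier results of these data known. Alternatives were another overlap, score or distance rule, pseudocount 0.25, no filter, no centring, rescaled libraries and leaving out each library. No sequence is printed, as no genome was used here.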

Additional observations from a re-analysis of the deposited data

Results flagged for a closer look

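LBD41 was flagged because its H3K9ac moved in opposite directions at the 2 times, with every library of the hypoxic group beyond every control library each time. The change was 0.97 in 2HS against 2NS and -0.996 in 9HS against 9NS. The difference between these changes was not tested.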

How the results depend on the processing

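Requiring an overlap of 50% of the shorter peak with 9HS kept 1017 regions. Only 29 had scores in the upper part (above the list median) of both hypoxic lists, and of these 93.1% overlapped a 1R peak, 13.8% an HRE2 peak and 72.4% were promoter-TSS. With no control peak within 500 bp, 684 remained, 67.0% of them promoter-TSS. Counts of called genes of these regions that moved by over 1.5 times were as follows. Without centring, nuclear RNA gave 9 at 2 h, 14 at 9 h and 10 in 1R against 2HS, poly(A)+ RNA gave 13, 425 and 20, and H2A.Z gave 1. With no filter, nuclear RNA gave 15 at 2 h and 10 in 1R, poly(A)+ RNA at 9 h gave 500 and H2A.Z gave 0. With rescaled libraries, an alternative chosen after seeing the data, nuclear RNA gave 62 at 2 h and 49 in 1R, and H2A.Z gave 1, as it did with a pseudocount of 0.25. Regions within 1000 bp of the start gave 63 in poly(A)+ RNA and 2 in H3K14ac at 2 h.

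Leaving out each library gave 11 to 43 in nuclear RNA at 2 h (main 28), 20 to 77 at 9 h (40) and 9 to 35 in 1R against 2HS (18). It gave 69 to 104 in poly(A)+ RNA at 2 h (97), 168 to 262 at 9 h (238) and 81 to 118 in 1R (111), 153 to 221 in TRAP at 2 h (211) and 201 to 257 in 2R (249). For H3K9ac the range was 76 to 172 at 2 h (154) and 313 to 387 at 9 h (392), for H3K14ac 0 to 7 (5) and 126 to 319 (304), for H2A.Z 3 to 222 (2), for H3K27me3 0 to 48 (0), and for Ser2P and H3K4me3 0 to 0. With libraries numbered by depth from the shallowest, nuclear RNA at 2 h gave 11 and 13 without the first or second of 2HS, 12, 16 and 16 without each of 2NS, and 43 without the first of 1R. At 9 h it gave 26 and 26 without the first or second of 9HS, 22, 20 and 24 without each of 9NS, and 77 without the first of 1R. In 1R against 2HS it gave 35 without the deepest of 1R and 9 without the first of 2HS. H3K9ac at 2 h gave 76 without either 2NS library and 81 without the shallower 2HS library, and H3K14ac at 2 h gave 0 and 3 without a 2HS library, 0 without either of 2NS and 1 without either of 9NS. H3K14ac at 9 h fell to 126 without the shallower 9HS library and 129 and 167 without a 9NS library. H3K27me3 gave 48 without the shallower 2HS library, and H2A.Z 222 and 23 without a 2HS library and 6 without the deeper 2NS library. The cause of these shifts was not tested.

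In poly(A)+ RNA at 9 h, removing the centring reversed ABO5 (-1.21, and -0.36 with no filter), ELF3 (-0.54), WRKY33 (-0.40), PYL6 (-1.17), HSP70 (-0.080), WRKY22 (-0.75), ZAT6 (-0.31) and ROF2 (-0.22), as a median gene 1.75 lower fixes. No paired analysis was possible because the deposited group means and the libraries solved from them carry no replicate number. The shallowest nuclear RNA library held 1050846 reads, which limits the precision of its low genes.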
